A study of Mus musculus with 69 samples.

Results

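The genes described here were raised in bone marrow-derived macrophages 1 h after interleukin-4 (IL-4) and were back near their starting level by 24 h. They were chosen from the RNA-seq time course of the strains C57 (C57BL/6J) and SPRET (SPRET/EiJ) on group means of log2(TPM + 1), where TPM is a transcript level scaled to transcript length and library size. A gene had to reach at least 2 TPM in both 1 h libraries of a strain. In that same strain it had to exceed the untreated (basal) mean by over 1 at 1 h and by under 0.5 at 24 h. The rule found 88 of the 24537 genes in the table. It was met by 35 genes in C57 and by 66 in SPRET, of which 13 met it in both strains. Since these values chose the genes, the 1 h and 24 h differences of the choosing strain are given as a description, without a test.

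Macrophages were grown from the bone marrow of young adult female mice with macrophage colony-stimulating factor (M-CSF) and were left untreated or given 20 ng/ml mouse IL-4. The time course held wild-type C57 and SPRET cells at basal, 1, 6 and 24 h, with 2 libraries per group (16 libraries). A second table held the same times for Egr2WT cells (Egr2 fl/fl) and Egr2MKO cells (LyzM-Cre Egr2 fl/fl), again with 2 libraries per group. Both of these genotypes carried the floxed Egr2 allele, and LyzM-Cre, present in Egr2MKO only, deletes it in myeloid cells. No group carried LyzM-Cre without the floxed allele, so loss of Egr2 and presence of LyzM-Cre cannot be told apart. A further table held wild-type C57, BALB (BALB/cJ), NOD (NOD/ShiLtJ), PWK (PWK/PhJ) and SPRET cells at basal and 24 h, with 3 libraries per group except 2 for PWK basal (29 libraries). No library came from cells handled for 1 h without IL-4, so IL-4 and the handling at its addition cannot be told apart.

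IL-4 binds its receptor on macrophages, Janus kinases then phosphorylate the transcription factor STAT6, and STAT6 enters the nucleus and switches on target genes without the need for new protein. Immediate early genes are known for this speed and for unstable messengers that let their levels fall again once transcription slows. Many encode transcription factors, RNA-decay proteins, signalling adaptors and feedback inhibitors that act on the later response. Other IL-4 targets stay raised and mark the alternatively activated macrophage.

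Promoter sequence was looked up for the 67 members that are not microRNA or small nucleolar RNA (snoRNA) genes. RefSeq start sites on GRCm38.p6 matched 53 of them, with 67 windows of 300 bases (250 before the start and 50 after). The STAT motif with 3 bases between its half-sites, TTCNNNGAA, was in 9 member windows (13.4%), against 8.30% of all 32851 windows and 6.82% of the 11959 windows of genes tested in the time course. The 4-base form bound by STAT6, TTCNNNNGAA, was in 3 (4.48%), against 6.95% and 5.56%. The AP-1 motif TGANTCA was in 7 (10.4%), against 7.81% and 5.24%, and the EGR motif GCGTGGGCG in 1 (1.49%), against 0.612% and 1.23%. The cAMP response element TGACGTCA and the CArG box were each in 2 (2.99%). The cAMP element was in 1.79% of all windows and 3.04% of those of tested genes, and the CArG box in 1.63% and 1.25%. The NF-kB motif GGGNNTTTCC was in 0, against 1.63% and 1.75%. All were searched on both strands, and overlapping matches were counted for each motif on its own. Such matches are descriptions of the letters and not binding sites.

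The 250 bases before the start are shown for the 5 members that hold a STAT motif there and passed the test at 1 h or 6 h in Egr2WT cells. Each reads 5′ to 3′ on the gene's strand, with the matched letters in capitals. Those of Pde4b (chr4:102569810-102570059, plus strand), Rasgrp1 (chr2:117342878-117343127, minus) and Dab2 (chr15:6299539-6299788, plus) hold the 3-base form. That of 5430427O19Rik (chrX:85870023-85870272, plus) holds the 4-base form, and that of Tlr8 (chrX:167264330-167264579, minus) holds both. The Dab2 window lies at an upstream start that is not the one listed in the expression table.
Pde4b: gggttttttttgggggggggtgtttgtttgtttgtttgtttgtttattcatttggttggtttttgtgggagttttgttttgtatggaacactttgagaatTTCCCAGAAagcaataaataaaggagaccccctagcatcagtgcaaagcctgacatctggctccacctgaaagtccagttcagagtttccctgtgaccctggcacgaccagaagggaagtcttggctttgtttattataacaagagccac
Rasgrp1: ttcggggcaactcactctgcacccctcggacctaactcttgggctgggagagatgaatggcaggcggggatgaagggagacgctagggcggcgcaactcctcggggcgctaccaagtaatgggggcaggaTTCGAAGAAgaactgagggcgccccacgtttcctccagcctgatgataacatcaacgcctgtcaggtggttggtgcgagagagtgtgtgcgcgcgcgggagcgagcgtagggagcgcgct
Dab2: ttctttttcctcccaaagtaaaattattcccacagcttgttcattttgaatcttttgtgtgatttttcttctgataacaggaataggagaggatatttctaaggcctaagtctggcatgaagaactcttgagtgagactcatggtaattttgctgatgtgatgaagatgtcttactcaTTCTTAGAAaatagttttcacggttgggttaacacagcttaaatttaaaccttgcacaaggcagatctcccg
5430427O19Rik: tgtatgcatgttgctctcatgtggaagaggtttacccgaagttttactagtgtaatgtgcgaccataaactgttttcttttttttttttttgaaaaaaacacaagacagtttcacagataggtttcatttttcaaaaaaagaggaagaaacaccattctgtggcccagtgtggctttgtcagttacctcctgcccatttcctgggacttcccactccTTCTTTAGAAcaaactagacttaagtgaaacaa
Tlr8: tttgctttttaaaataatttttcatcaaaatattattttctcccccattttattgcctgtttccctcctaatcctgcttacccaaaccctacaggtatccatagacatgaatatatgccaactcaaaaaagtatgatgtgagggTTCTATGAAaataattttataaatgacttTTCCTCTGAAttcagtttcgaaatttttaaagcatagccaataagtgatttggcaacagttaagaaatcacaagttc

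The members were 61 protein-coding genes, 11 snoRNA genes, 10 microRNA genes and 6 other noncoding genes or pseudogenes. The protein-coding members were compact. Their median number of exons was 4, against 9 for 10961 protein-coding genes tested in the time course, and 26.2% (16 of 61) had 1 or 2 exons, against 6.34%. Those met in both strains (11) had a median of 3 exons. The AU-rich letters TATTTAT, a mark of unstable messengers, were in the 3′ untranslated region of 24 of the 61 (39.3%), against 26.8% of the tested genes. Of the 11 met in both strains 3 held them (27.3%), near the share of the tested genes. For comparison, 94 genes were over 1 at both 1 h and 24 h in C57 or SPRET, and the 84 protein-coding genes among them had a median of 5 exons, 17.9% with 1 or 2 exons and 36.9% with the AU-rich letters.

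The members made up a small share of the expressed RNA that grew and shrank over the time course. In C57 they took 0.157% and 0.168% of the summed TPM at basal and 0.353% and 0.361% at 1 h. The share was 0.274% and 0.277% at 6 h and 0.190% and 0.195% at 24 h. By the rule, 35 of the 96 genes over 1 at 1 h in C57 were back under 0.5 at 24 h (36.5%), and 66 of 182 in SPRET (36.3%). Of the C57 genes 45 were still over 1 at 24 h, and of the SPRET genes 80. The return was often complete by 6 h. The 6 h minus basal difference was under 0.5 in 17 of the 35 members chosen in C57 and in 35 of the 66 chosen in SPRET. It was above the 1 h difference in 4 and 6. The medians in C57 were 1.29, 0.51 and 0.02 at 1, 6 and 24 h, and in SPRET 1.34, 0.45 and 0.04.

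The thresholds cut through a continuum. In C57 the smallest 1 h differences inside were Socs5 1.002, Tlr4 1.003 and Akap7 1.017, and those just outside included 9130008F23Rik 0.9967 and Snora70 0.9573. The largest 24 h differences inside were Tlr8 0.4373 and Tlr4 0.4154, and the smallest outside were Hnrnpll 0.5503, 2700038G22Rik 0.5853 and Snhg15 0.5929. The lowest 1 h TPM inside were Mirlet7d 2.16, Serpinb2 2.42 and Mir8116 3.45, and the highest outside were Snora3 1.88, Snord2 1.65 and Mir1949 1.60. In SPRET the 1 h differences nearest the threshold were Gpr85 1.030, Rhoh 1.033 and Gm9895 1.034 inside, and St8sia4 0.9859, Snhg15 0.9837 and Ms4a6d 0.9795 outside. At 24 h they were Cdc42ep2 0.475, Serpina3h 0.4497 and Snord33 0.4272 inside, and Mir6983 0.5139, Eid2 0.532 and Rasgef1b 0.5439 outside. For the 1 h TPM they were Serpina3h 2.12, Snora41 2.15 and Mir6954 2.51 inside, and 1700102H20Rik 1.85, 9130008F23Rik 1.58 and Rasgrp1 1.56 outside.

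The members met in both strains included the transcriptional regulators Id1, Ikzf1, Hlx and Cited2. Levels are given in TPM, a level per length. Id1, an inhibitor of basic helix-loop-helix factors, was close to absent without IL-4. In C57 it had 0.296 and 0.313 TPM at basal, 6.05 and 8.17 at 1 h, 1.43 and 1.14 at 6 h, and 0.358 and 0.854 at 24 h. In SPRET it had 0.270 and 0 TPM at basal, 6.85 and 6.74 at 1 h, 0.949 and 0.312 at 6 h, and 0.282 and 0.529 at 24 h. The 1 h libraries stood above all others in both strains. Its 1 h difference was 2.62 in C57 and 2.79 in SPRET. Of the other Id genes, Id2 differed by -0.39 in C57 and -1.47 in SPRET at 1 h, Id3 by 0.09 and -0.21, and Id4 was not expressed enough to test.

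Ikzf1, the zinc-finger factor Ikaros of blood cells, was near basal by 6 h. It had 17.4 and 18.3 TPM at basal in C57, 46.8 and 43.2 at 1 h, 21.1 and 21.4 at 6 h, and 18.9 and 17.3 at 24 h. In SPRET its 1 h libraries had 92.5 and 97.0 TPM, against 28.1 to 34.1 in the other 6. The homeobox gene Hlx had 53.4 and 66.0 TPM at 1 h in C57 against 17.1 to 31.4 at other times. Cited2, a partner of the coactivators CBP and p300, had 81.7 and 86.5 against 33.5 to 40.6. Neither Hlx nor Cited2 overlapped between 1 h and any other time in SPRET either.

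Other members with roles in transcription or chromatin met the rule in 1 strain. Jdp2, a repressor of AP-1, had 31.3 and 39.4 TPM at 1 h in SPRET against 10.6 to 18.0 at other times. In C57 it had 6.75 and 9.49 TPM at 1 h, against 7.40 and 9.56 at basal, and 20.9 and 19.9 at 24 h. The repressor Gfi1 was chosen in SPRET, with a 1 h difference of 1.59, against 0.31 in C57. Brwd1, a bromodomain protein, was chosen in C57, with 1.06 against 0.27 in SPRET.

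The regulators of messenger decay were Zfp36l1, which binds AU-rich elements, and Zc3h12a, the ribonuclease Regnase-1. Zfp36l1 had 15.0 and 18.1 TPM at basal in C57, 57.01 and 62.4 at 1 h, 53.2 and 51.3 at 6 h, and 16.3 and 18.4 at 24 h. In SPRET it had 39.1 and 36.1, 97.3 and 90.5, 109 and 101, and 55.4 and 45.8 TPM at the same times. Its level at 6 h was therefore near that at 1 h, and the return came between 6 h and 24 h. Zc3h12a had 34.9 and 37.8 TPM at basal in C57 and 78.4 and 78.6 at 1 h, and 36.4 and 36.3 at basal in SPRET and 106 and 95.4 at 1 h. Its 8 libraries at 6 h and 24 h lay between 42.8 and 56.7. The relatives of Zfp36l1 moved otherwise, with 1 h differences of -0.25 in C57 and 0.48 in SPRET for Zfp36 and of -0.61 and -2.23 for Zfp36l2.

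Trib1, a pseudokinase that guides a ubiquitin ligase, had the largest 1 h difference in SPRET (3.95). It had 2.10 and 0.899 TPM at basal there, 35.7 and 37.1 at 1 h, 2.88 and 2.31 at 6 h, and 2.13 and 1.88 at 24 h. In C57 it had 1.71 and 2.53 TPM at basal, 24.6 and 24.8 at 1 h, 5.75 and 5.99 at 6 h, and 6.00 and 6.25 at 24 h. C57 therefore missed the rule for Trib1 only by its 24 h level, a difference of 1.20. Ier3, an early response gene of cell survival, was alike in this, with 24 h differences of 1.02 in C57 and 0.04 in SPRET. Its 1 h differences were 2.36 and 2.00.

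Socs5, of the suppressors of cytokine signalling, was the member among 27 genes of the JAK-STAT pathway and its feedback. It had 7.95 and 7.32 TPM at basal in C57 and 16.4 and 16.2 at 1 h, against 8.80 to 10.6 at 6 h and 24 h. In SPRET it had 7.76 and 7.49 at basal and 22.3 and 21.7 at 1 h, against 6.72 to 13.3 later. Of the family's strongest responders, Socs1 fell only part of the way by 24 h and Cish stayed near its 1 h level, so neither was a member. Socs1 differed from basal by 5.54 at 1 h and 2.85 at 24 h in C57 and by 7.14 and 4.83 in SPRET, and Cish by 3.96 and 4.22 and by 5.06 and 4.97. Pde4b, which degrades cyclic AMP, had 12.3 and 12.2 TPM at basal in C57, 38.8 and 39.0 at 1 h, 16.7 and 17.8 at 6 h, and 12.7 and 14.3 at 24 h.

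The Cdc42 effector proteins Cdc42ep2, Cdc42ep3 and Cdc42ep4 are 3 of the 5 genes of their family, and the other 2 were not expressed enough to test. Cdc42ep2, met in both strains, had 26.5 and 27.4 TPM at basal in C57, 82.6 and 74.0 at 1 h, 49.2 and 49.9 at 6 h, and 35.6 and 33.3 at 24 h. Cdc42ep3 was chosen in C57, with 8.19 and 8.60 TPM at basal and 20.2 and 21.7 at 1 h, and its 1 h difference in SPRET was 0.89. Cdc42ep4 was chosen in SPRET (1.18) and differed by 0.60 in C57. Rasgrp1, an exchange factor that loads Ras, was higher still at 6 h. It had 0.922 and 1.12 TPM at basal in C57, 3.73 and 4.20 at 1 h, 8.36 and 10.3 at 6 h, and 1.07 and 0.729 at 24 h. Tagap, a GTPase-activating protein, had 5.50 and 5.99 TPM at basal in SPRET, 26.0 and 23.6 at 1 h, and 5.35 to 9.14 later. Its near copy Tagap1 differed by 1.70 in SPRET and -0.27 in C57, so reads shared between them make both uncertain. Rhoh, an atypical small GTPase, differed by 1.03 in SPRET and 0.94 in C57.

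The remaining signalling and adaptor members had 1 h differences between 1.02 and 2.21 in the strain that chose them. Dab2, a clathrin adaptor, was at the top with 10.8 and 11.4 TPM at basal in SPRET and 61.1 and 49.4 at 1 h. It was no lower at 6 h, with 67.0 and 60.3 TPM, and had 9.00 and 8.78 at 24 h. The pleckstrin-homology protein Phlda1 was chosen in C57 (1.20, against 0.51 in SPRET). Traf6, a ubiquitin ligase of Toll-like receptor signalling, was chosen in SPRET (1.20, against 0.62 in C57). The kinase anchor Akap7 and the FERM protein Frmd6 were chosen in C57. The phosphatase Ptpn12, the kinase Stk38l, the kinase adaptor Mob3c, the focal adhesion proteins Cass4 and Tes, and Sema4c were chosen in SPRET.

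Receptors included both prostaglandin and adenosine receptors. Ptger4, the prostaglandin E2 receptor EP4, had 12.6 and 12.5 TPM at basal in C57, 30.2 and 32.7 at 1 h, and 12.2 and 13.2 at 6 h. At 24 h it had 3.45 and 4.06, so it ended below its start (-1.51). In SPRET it also ended lower (-0.75). Adora2b, an adenosine receptor, was chosen in C57, with 2.70 and 2.37 TPM at basal, 12.9 and 12.6 at 1 h, 6.97 and 6.44 at 6 h, and 3.33 and 3.31 at 24 h. In SPRET it had 3.55 and 4.08 at basal and 7.17 and 6.81 at 1 h. Gpr183, an oxysterol receptor, and the Wnt receptor Fzd4 were chosen in SPRET (1.33 and 1.21) and differed by 1.03 each in C57. Gpr85 and Fcrlb were chosen in SPRET, with 1.03 and 1.13, against 0.66 and 0.16 in C57. Of the Toll-like receptors, Tlr4 and Tlr8 were chosen in C57, with 1.00 and 1.10, and Tlr8 had its highest level at 6 h (134 and 154 TPM, against 101 and 97.6 at 1 h). Tlr2 was below basal at 1 h, by -0.52 in C57 and -0.87 in SPRET.

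The chemokine Ccl4 was chosen in C57, with 31.6 and 29.3 TPM at basal, 89.1 and 95.0 at 1 h, 63.9 and 67.5 at 6 h, and 19.7 and 25.1 at 24 h. In SPRET it did not return, with 6.91 and 7.64 TPM at basal, 22.8 and 18.8 at 1 h, and 41.3 and 36.3 at 24 h. A run of neighbouring protease inhibitors of chromosome 1 were members. Serpinb2, which inhibits urokinase, was chosen in C57 at 1.08 and 0.371 TPM at basal and 2.42 and 2.85 at 1 h. Its change in SPRET was far larger, from 2.44 and 1.70 TPM at basal to 55.2 and 47.9 at 1 h and 4.14 and 4.51 at 24 h. Serpinb10 and Serpinb8 were chosen in SPRET (1.67 and 1.48). Serpinb10 was at 0.107 TPM or less in 7 of 8 C57 libraries and at 0.202 in the other. The interferon-inducible genes Ifi47, Ifi204 and Ifi207 were chosen in SPRET (1.04, 1.06 and 1.05) and differed by 0.22, 0.45 and 0.31 in C57. Ifi204 and Ifi207 are near copies, and their split of reads is uncertain.

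A last set of coding members had roles outside signalling. Dclre1b, a nuclease of telomere repair, was chosen in C57 (1.23, against 0.31 in SPRET). The noncoding Gm15471 lies across it on the opposite strand and had 1.43 in C57, so reads of the 2 genes may not be told apart. The single-strand DNA-binding protein Nabp1 and Osgin2 were chosen in SPRET (1.23 and 1.60). In C57 Osgin2 differed by 1.42 at 1 h and by 1.71 at 24 h. Rps27, a ribosomal protein with a near copy, was chosen in C57 (1.53) and differed by -0.35 in SPRET. Dcun1d3, Hyls1, the methyltransferase-like Mettl13 and Mettl18, the sorting nexin Snx16, Rnf24, Tspyl1, 5430427O19Rik and 1600014C10Rik were chosen in SPRET, as were the noncoding Dancr, 1810032O08Rik and Gm9895. Hyls1, Rnf24 and Gpr183 each overlap a tested gene on the opposite strand.

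**Figure D1:**
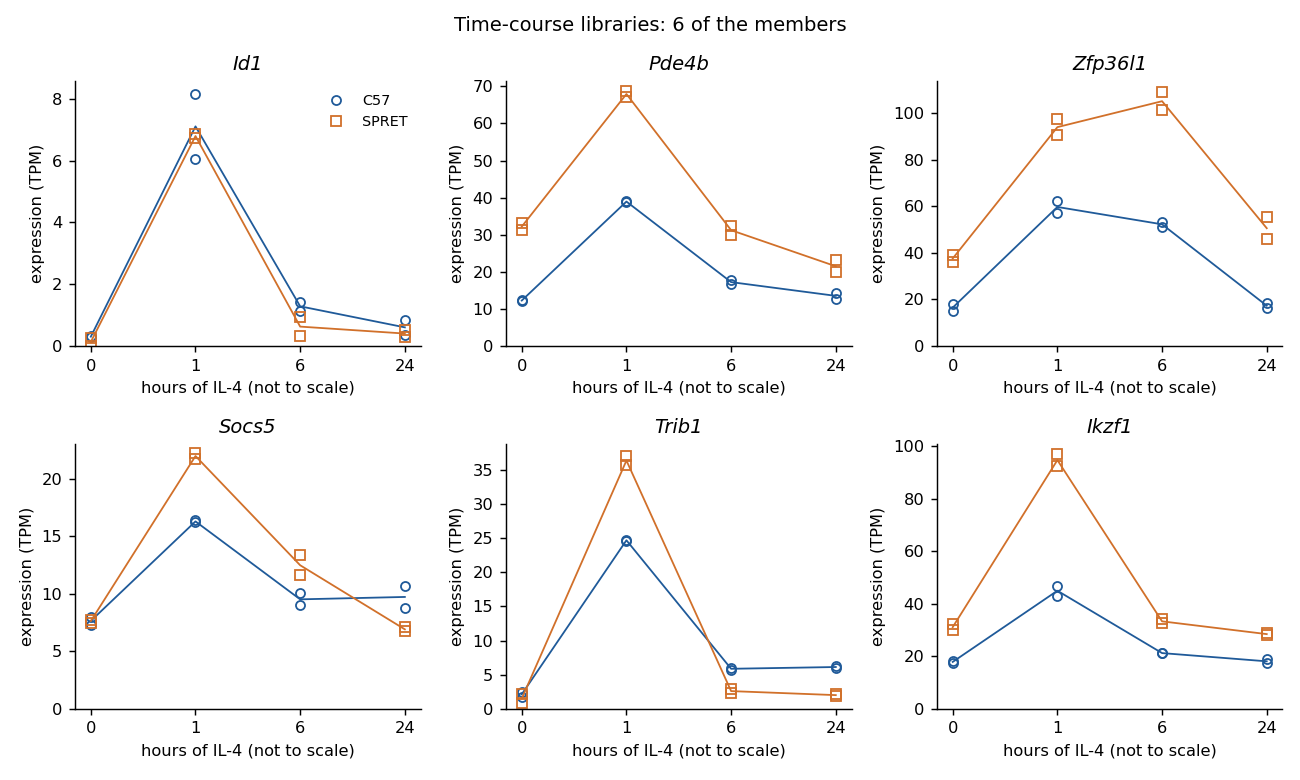
TPM in every library of C57 and SPRET at 0, 1, 6 and 24 h of IL-4 for Id1, Pde4b, Zfp36l1, Socs5, Trib1 and Ikzf1, with points for libraries and lines through the means of 2. The 1 h libraries are above the basal and 24 h libraries of the same strain in all 6 panels, and Zfp36l1 alone stays near its 1 h level at 6 h in both strains.

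The small RNA genes were weaker evidence. All 21 were listed at 0 in at least 1 of the 16 libraries, in a median of 8, against 5 of the 67 other members. They are 19 to 138 bases long, so a few reads give a high TPM. Snord33 had 0 and 0 TPM at basal in SPRET, 9.15 and 5.95 at 1 h, 2.72 and 0 at 6 h, and 0.808 and 0 at 24 h. Snord16a, met in both strains, had 2.04 and 0 TPM at basal in C57, 4.90 and 3.72 at 1 h, and 0 and 0 at 24 h. Of the 21, 16 lie in a tested gene of the same strand, such as Rpl13a for Snord33 and Rpl4 for Snord16a, and 0 of those host genes changed by over 1 at 1 h in the choosing strain. Rpl13a differed by -0.02 in SPRET. Snord16a, Snord33, Snord37, Snord4a, Snord45c, Snord47, Snord49b, Snord52, Snord68, Snora41 and Snora43 were the snoRNA genes. Snord68 (3.18), Snord33 (3.07), Snord37 (2.87), Snord52 (2.10) and Snord16a (1.87) were among the 12 largest 1 h differences in SPRET. Snord49b (1.72) and Snord16a (1.60) were among those in C57.

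Mir221 was the microRNA gene met in both strains, and both arms of its hairpin are shown for that reason, from RefSeq on GRCm38.p6. The libraries were made from poly(A)-enriched RNA, so the values are of reads over the hairpin gene and not of the mature microRNA. The arms read 5′ to 3′ on the minus strand at chrX:19146307-19146329 (3p) and chrX:19146344-19146369 (5p), with bases 2 to 8, the seed, in capitals.
mmu-miR-221-3p: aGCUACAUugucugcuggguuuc
mmu-miR-221-5p: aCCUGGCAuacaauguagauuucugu

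Mir221 had 4.89 and 1.55 TPM at basal in C57, 5.87 and 11.9 at 1 h, 4.05 and 5.65 at 6 h, and 1.42 and 5.63 at 24 h. In SPRET it had 4.01 and 0 TPM at basal, 6.30 and 5.13 at 1 h, 5.87 and 9.25 at 6 h, and 2.79 and 0 at 24 h. The 1 h libraries stood above the basal ones in both strains and overlapped with those of 6 h in SPRET. Mir3962, Mir5617, Mir7118, Mir8112, Mir8116 and Mirlet7d were chosen in C57, with 1 h differences of 1.03 (Mirlet7d) to 2.31 (Mir5617). Mir8116 differed by 1.91, Mir8112 by 1.69 and Mir3962 by 1.65. The expression table places Mir3962 inside Ccnd1 on chromosome 7 and RefSeq places it on chromosome 1, so its values may not be of this microRNA gene. Mir142b, Mir6936 and Mir6954 were chosen in SPRET, with 1.05 (Mir142b) to 2.50 (Mir6954).

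The rule was applied in each strain by itself, so the genes chosen in one strain could be followed in the other. Tests were made with limma on log2(TPM + 1) over all genes that reached 1 TPM in 2 or more libraries. A gene was called when it changed over 2-fold (over 1 on this scale) at a Benjamini-Hochberg adjusted p under 0.05. Nothing says that the 2 libraries of a group came from separate animals, so the p-values measure the spread between these libraries. Of the 35 members chosen in C57, 16 were called higher at 1 h in SPRET, but 11 of these were among the 13 met in both strains, whose SPRET values had met the rule too. Of the 22 chosen in C57 only, 5 rose in SPRET, against 1.41% of the 12088 genes tested, with a median difference of 0.45 against -0.01 for all genes. Of the 66 chosen in SPRET, 17 were called higher in C57, 11 of them again met in both strains. Of the 53 chosen in SPRET only, 6 rose in C57, against 0.703%, with a median of 0.43 against 0.02. The 22 and the 53 had failed the rule in the other strain at 1 h, at 24 h or by their level, so they leave out genes with the whole pattern there. The test called 0 of the 22 lower in SPRET, against 0.472% of all genes, and 0 of the 53 lower in C57, against 0.174%. The lowest differences, of Mir7118 (-1.97 in SPRET) and Mir142b (-1.17 in C57), were not called (adjusted p = 0.201 and 0.808).

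Of those chosen in C57 only, Serpinb2 had the largest difference in SPRET, 4.105 (SE 0.19), followed by Akap7 with 1.97, and Ccl4 (1.39), Rasgrp1 (1.27) and Tlr8 (1.11) also rose. Of those chosen in SPRET only, Trib1 (3.05), Ier3 (2.36), Tagap (1.92), Osgin2 (1.42), Gpr183 (1.03) and Fzd4 (1.03) rose in C57. With 1 library left out, Fzd4 and Gpr183 fell below the fold limit (0.98 and 0.96 without C57 1 h replicate 2). For the members met in both strains the SPRET differences are a description, among them Id1 2.79, Cdc42ep2 1.63, Ikzf1 1.58, Hlx 1.50, Zc3h12a 1.44, Socs5 1.41, Cited2 1.33, Zfp36l1 1.30, Ptger4 1.29 and Pde4b 1.05. Of the members chosen in SPRET only, Serpinb10, Tagap1, Jdp2 and Mettl18 had differences of -0.27 to -0.03 in C57.

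**Figure D2:**
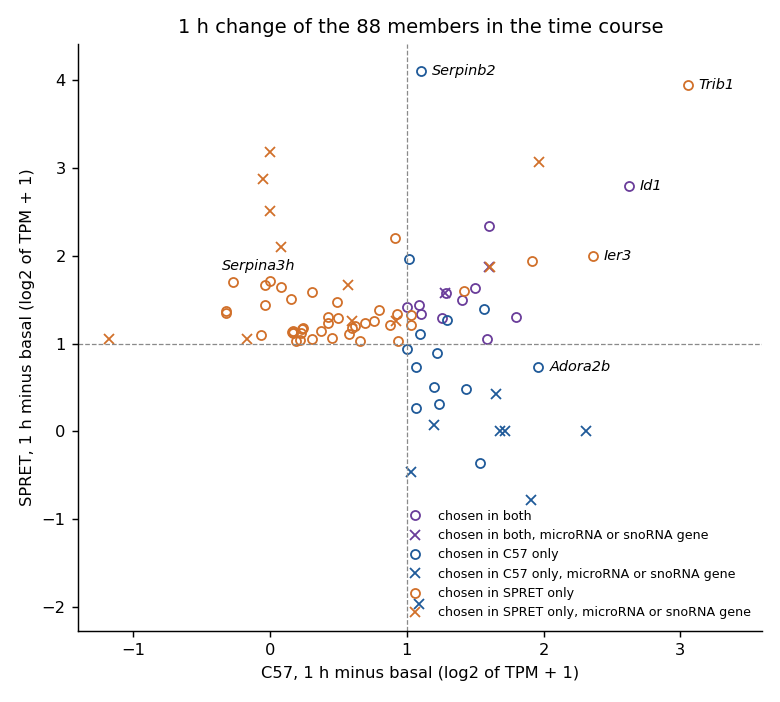
The 1 h minus basal difference on the log2(TPM + 1) scale in C57 (x axis) and in SPRET (y axis), one point for each of the 88 members, coloured by the strain that chose it. The 13 members met in both strains lie above 1 on both axes, while those chosen in SPRET only spread down to -1.17 in C57 and those chosen in C57 only down to -1.97 in SPRET.

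Egr2WT and Egr2MKO cells were not used by the rule. The labels held for the targeted gene. Egr2 had 23.6 and 21.3 TPM at basal in Egr2WT, 82.0 and 75.6 at 1 h, 88.4 and 92.5 at 6 h, and 101 and 99.5 at 24 h. In Egr2MKO it had 0.859 and 0.854 TPM at basal and 3.10 to 7.05 after IL-4, all below every Egr2WT library. Of the 88 members, 84 were expressed enough to test, while Gfi1, Mir5617, Mir8116 and Serpinb10 were not.

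Members rose in Egr2WT as well, and fewer of them were raised at 24 h than at 1 h. At 1 h 24 of the 84 rose and 0 fell, against 0.604% of the 12079 genes tested that rose and 0.174% that fell. Their median difference was 0.72, against 0.03 for all genes. None of the small RNA members was called higher. Trib1 rose by 3.27 (SE 0.13), Id1 by 2.79 (SE 0.25), Ier3 by 1.94 (SE 0.06), Cited2 by 1.90 (SE 0.04) and Adora2b by 1.82 (SE 0.16). These were the largest differences among the members called, while the uncalled Snord16a differed by 2.24. Hlx (1.25), Ikzf1 (1.01), Zfp36l1 (1.42), Socs5 (1.25), Pde4b (1.63), Tagap (1.75), Rasgrp1 (1.32), Phlda1 (1.37), Frmd6 (1.31), Fzd4 (1.26), Gpr183 (1.22), Cdc42ep2 (1.23), Cdc42ep3 (1.15), Ccl4 (1.19), Osgin2 (1.12), 5430427O19Rik (1.10), Nabp1 (1.08) and Dclre1b (1.06) also rose. Ptger4 (0.998), Tlr8 (0.98) and Zc3h12a (0.87) missed the fold limit with adjusted p of 1.29e-05, 3.88e-06 and 1.81e-06. Without Egr2WT 1 h replicate 1, Cdc42ep3 (0.92), Dclre1b (0.99) and Ikzf1 (0.99) missed it too, and Phlda1 lost its call without replicate 2 (adjusted p = 0.107).

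The smallest 1 h responses in Egr2WT were all of small RNA genes, namely Mir6936 (-2.39), Snord33 (-2.27), Snord4a (-1.29), Snord52 (-1.02) and Mir3962 (-0.84), and 0 of them passed the test. Snord33 had 3.37 and 4.35 TPM at basal and was listed at 0 in both 1 h libraries. Snord16a had 0 and 0 TPM at basal, 2.98 and 4.59 at 1 h, 2.91 and 8.19 at 6 h, and 0 and 0 at 24 h.

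At 6 h 15 members were higher than basal in Egr2WT, against 1.99% of all genes, and 1, Snord4a, was lower, against 0.869%. Rasgrp1 rose by 3.91, from 0.698 and 0.450 TPM at basal to 3.06 and 2.80 at 1 h and 23.2 and 22.0 at 6 h, and had 4.23 and 3.90 at 24 h. Dab2 (1.88), Ier3 (1.95) and Tlr8 (1.79) were also higher at 6 h. At 24 h 7 members were higher, against 2.31% of all genes, and 1, Snord33, was lower, against 2.04%. The higher ones were Rasgrp1 (1.69), Trib1 (1.23), Tlr8 (1.21), Osgin2 (1.09), Rhoh (1.06), Ier3 (1.03) and Dab2 (1.02). Without 1 library or another, 4 of the 7 (Dab2, Ier3, Osgin2 and Rhoh) missed the fold limit, at 0.96 to 0.99. Set directly against 1 h, 16 members were lower at 24 h, against 2.10% of all genes, and 1, listed as Mir3962 at the uncertain place inside Ccnd1, was higher, against 1.88%. Id1 fell by 2.70, Cited2 by 2.06, Trib1 by 2.03, Ptger4 by 1.91, 5430427O19Rik by 1.63, Pde4b by 1.53, Hlx by 1.18, Socs5 by 1.02 and Ikzf1 by 1.00. In every fit with 1 library left out, 10 of the 16 kept their call, and Socs5 and Ikzf1 were not among them.

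The 94 genes that had stayed over 1 in the time course were set beside them, of which 92 were tested in Egr2WT. At 1 h 28 of the 92 rose, at 6 h 50 and at 24 h 51, and 3 were lower at 24 h than at 1 h. The members went from 24 of 84 at 1 h to 15 and 7. Both sets were chosen on the time course and were followed here in libraries that had no part in the choice.

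In Egr2MKO more members than in Egr2WT were called higher than basal at each time. At 1 h 30 of the 84 rose, against 0.687% of all genes, at 6 h 20, against 2.37%, and at 24 h 16, against 2.76%. The members' share of the summed TPM was 0.246% and 0.239% at basal in Egr2MKO, 0.487% and 0.484% at 1 h, 0.476% and 0.504% at 6 h and 0.471% and 0.477% at 24 h. In Egr2WT it was 0.203% and 0.206%, 0.388% and 0.371%, 0.352% and 0.364%, and 0.277% and 0.259%. The share at 24 h was thus near that at 1 h in Egr2MKO and lower than at 1 h in Egr2WT.

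**Figure D3:**
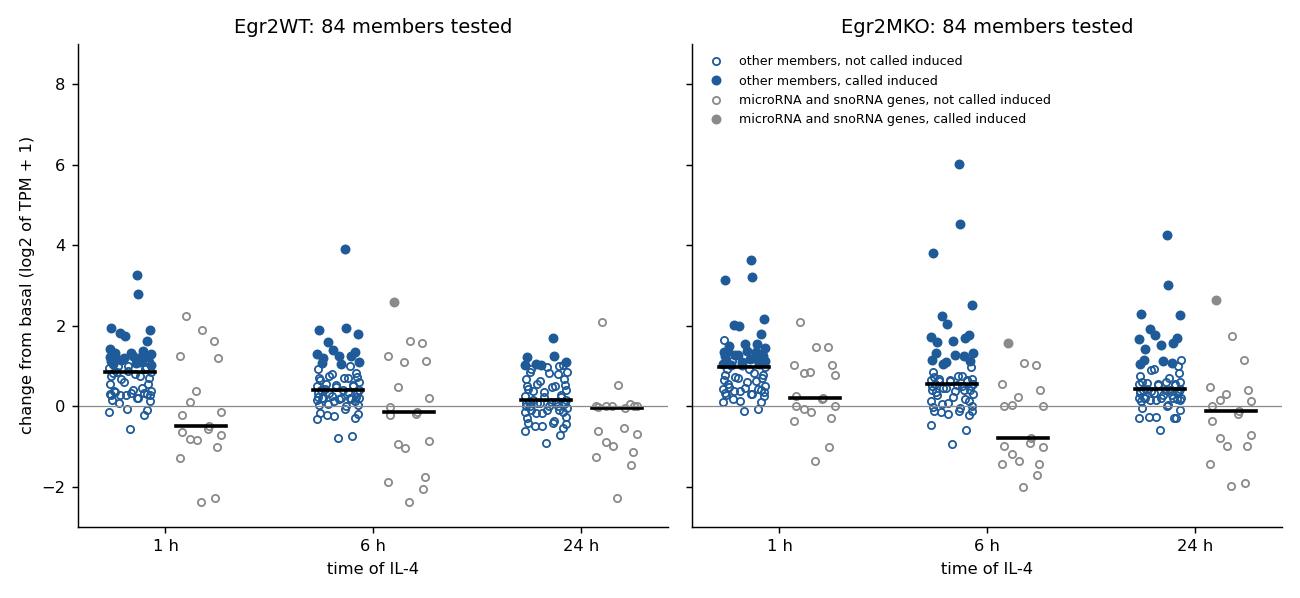
Difference from basal on the log2(TPM + 1) scale at 1, 6 and 24 h in Egr2WT and Egr2MKO, one point for each of the 84 members tested, split into small RNA genes and others, with filled points for members called higher and a bar at the median. The number of filled points goes from 24 to 15 to 7 in Egr2WT and from 30 to 20 to 16 in Egr2MKO.

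The genotypes were then compared at each time. At basal limma called 0 members different, against 0.853% of all genes in either direction. An unadjusted p under 0.05 was found for 30 of the 84. The share of all genes with such a p was not counted, so that number has no background. At 1 h 3 members were higher in Egr2MKO (0.480% of all genes) and 2 lower (0.580%). The higher ones were Serpina3h (3.31), Rasgrp1 (1.08) and Ifi47 (1.03), and the lower ones Snord47 (-1.89) and Phlda1 (-1.28). Phlda1 had 3.09 and 4.88 TPM at 1 h in Egr2WT and 0.915 and 1.13 in Egr2MKO. With 1 library left out Ifi47 missed the fold limit (0.93 without Egr2MKO 1 h replicate 2), Phlda1 lost its call without Egr2WT 1 h replicate 2 (adjusted p = 0.071), and Snord47 lost it without Egr2MKO 1 h replicate 1 (adjusted p = 0.177).

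At 24 h 15 members were higher in Egr2MKO, against 2.42% of all genes, and 1, Snord47, was lower, against 2.14%. Zfp36l1 was higher by 1.46, with 155 and 143 TPM in Egr2MKO and 55.9 and 51.1 in Egr2WT. Ptger4 was higher by 1.62, with 26.5 and 26.8 TPM against 7.54 and 8.54. The groups did not overlap for either gene. Ccl4 was higher by 1.82, with 108 and 126 TPM against 29.8 and 34.9. Rasgrp1 was higher by 2.18, with 21.4 and 22.6 against 4.23 and 3.90. Dab2 (1.53), Adora2b (1.40), Ier3 (1.35), Cdc42ep2 (1.05), Gm9895 (1.05) and 5430427O19Rik (1.59) were also higher. Without 1 library Cdc42ep2 missed the fold limit (0.99) and Gm9895 lost its call (0.70). Of the 92 genes that had stayed raised in the time course, 8 were higher and 18 lower in Egr2MKO at 24 h.

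The interferon-inducible members Ifi47 (1.84), Ifi204 (1.42) and Ifi207 (1.26) were higher in Egr2MKO at 24 h as well. Of 17 interferon-stimulated genes, none of them a member, 7 were higher in Egr2MKO at basal (0.373% of all genes), 9 at 1 h, 10 at 6 h and 12 at 24 h, with medians of 0.87, 1.01, 1.10 and 1.35. Their part in the members' difference was not tested.

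A difference in level can rest on the start, so the response itself (change from basal in Egr2MKO minus that in Egr2WT) was tested. At 1 h 1 member differed, Serpina3h (3.07), the one gene called of all tested (0.00828%). An unadjusted p under 0.05 was found for 13 of the 84 members, again without a count over all genes. At 6 h Serpina3h differed again (5.82), against 0.0993% of all genes. At 24 h 7 members had a larger response in Egr2MKO, against 1.13% of all genes, and 0 a smaller one, against 0.770%. They were Serpina3h (4.25), Rasgrp1 (1.32), Ier3 (1.25), Dab2 (1.25), Ccl4 (1.15), Ptger4 (1.12) and Zfp36l1 (1.08). Zfp36l1 was at 0.999 without Egr2MKO basal replicate 1. Hlx (0.97) and Socs5 (0.66) did not pass the fold limit. Id1 (0.44), Trib1 (0.44), Cited2 (0.47) and Ikzf1 (0.19) had small differences, and Id1 was back at 0.879 and 1.18 TPM in Egr2MKO and 0.450 and 1.18 in Egr2WT at 24 h.

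Serpina3h, a pseudogene among protease inhibitor genes of chromosome 12, stood apart. It had 0.136 and 0.236 TPM at basal in Egr2MKO, 9.43 and 9.45 at 1 h, 76.9 and 75.9 at 6 h, and 22.5 and 20.5 at 24 h. In Egr2WT it was listed at 0 in 5 of 8 libraries and reached 0.180 in the other 3, so the differences above are on the log2(TPM + 1) scale and are not folds. Its near copies moved with it, so its own reads are uncertain. At 6 h Serpina3f had 35.5 and 37.1 TPM in Egr2MKO against 0.515 and 1.09 in Egr2WT, and Serpina3g had 128.9 and 127.8 against 36.9 and 44.2. In the time course it had 2.46 and 2.12 TPM at 1 h in SPRET and 0 and 0 in C57. Serpinb2 was also higher in Egr2MKO at 6 h (4.44, against 0.894% of all genes called higher), but its libraries disagreed, with 9.88 and 74.4 TPM against 0.267 and 0.376 in Egr2WT.

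**Figure D4:**
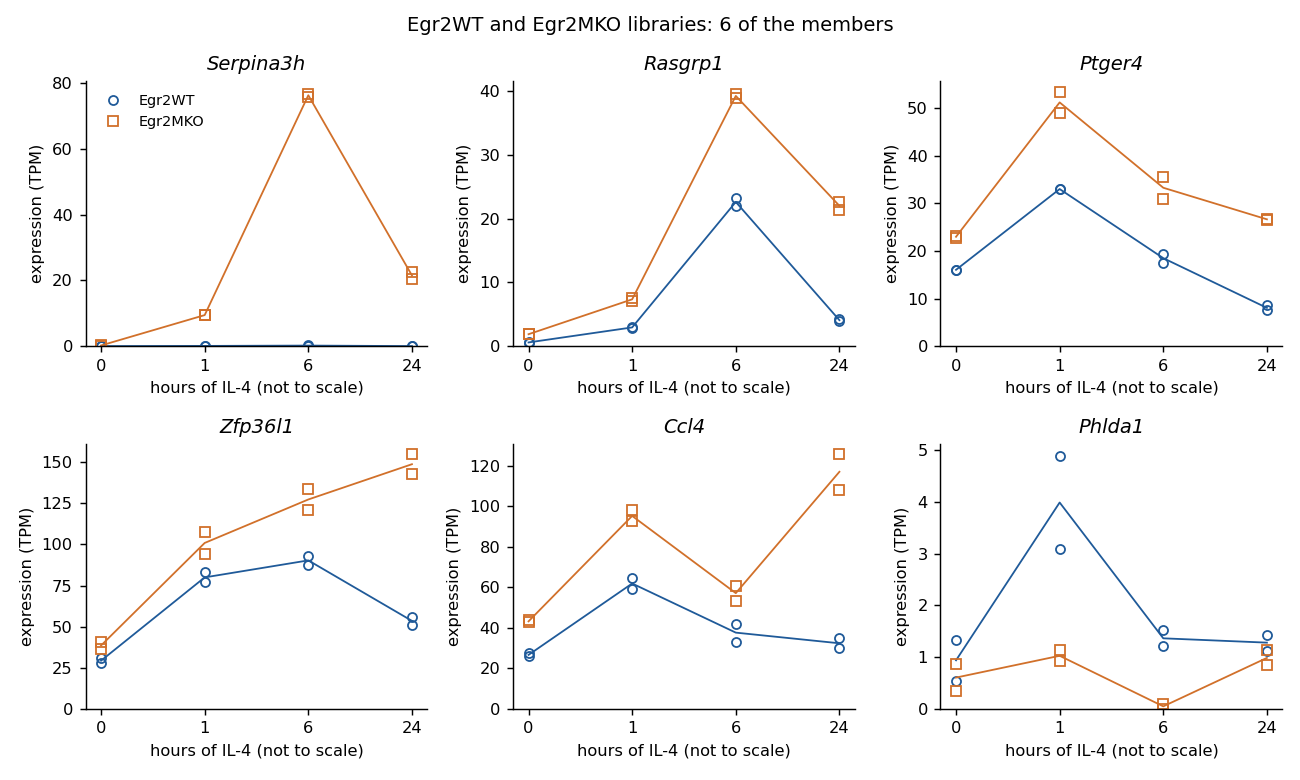
TPM in every library of Egr2WT and Egr2MKO at 0, 1, 6 and 24 h of IL-4 for Serpina3h, Rasgrp1, Ptger4, Zfp36l1, Ccl4 and Phlda1, with points for libraries and lines through the means of 2. At 24 h the Egr2MKO libraries lie above those of Egr2WT in the first 5 panels, while those of Phlda1 lie below Egr2WT at 1 h.

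The 5-strain table gave separate libraries at basal and 24 h. It was normalized apart from the others, so levels are compared within it only. Of the 88 members, 83 were tested. In C57 9 were higher at 24 h than at basal, against 2.28% of all 11907 genes, and 2 lower, against 1.53%. In SPRET 11 were higher, against 2.32%, and 1 lower, against 1.62%. Some members were thus raised at 24 h in these libraries.

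Of the 35 members chosen in C57, 32 had a value there, with a median 24 h difference of 0.27, and 19 were under 0.5. Of the 32, 3 were called higher, Zfp36l1 (1.44) and Tlr8 (1.11) among them. Zfp36l1 had 19.4, 22.6 and 17.3 TPM at basal and 61.1, 54.1 and 50.2 at 24 h, without overlap. Its 24 h difference in the time course was 0.07. Of the 66 chosen in SPRET, 64 had a value, with a median of 0.34, and 43 were under 0.5. Serpinb10 (1.99), Serpinb8 (1.22), Cdc42ep2 (1.17), Rhoh (1.12), Dab2 (1.12) and Hyls1 (1.00) were called higher and Snord68 (-1.23) lower. Serpinb10 had 0.797, 0.948 and 0.954 TPM at basal in SPRET and 6.10, 6.62 and 6.87 at 24 h, where its time course difference was -1.12. Dab2 had been at -0.29. In Egr2WT 22 of 33 members chosen in C57 and 48 of 64 chosen in SPRET were under 0.5 at 24 h. The share of all genes under 0.5 was not counted in either set of libraries. The counts under 0.5 therefore do not tell whether members were there more often than other genes.

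**Figure D5:**
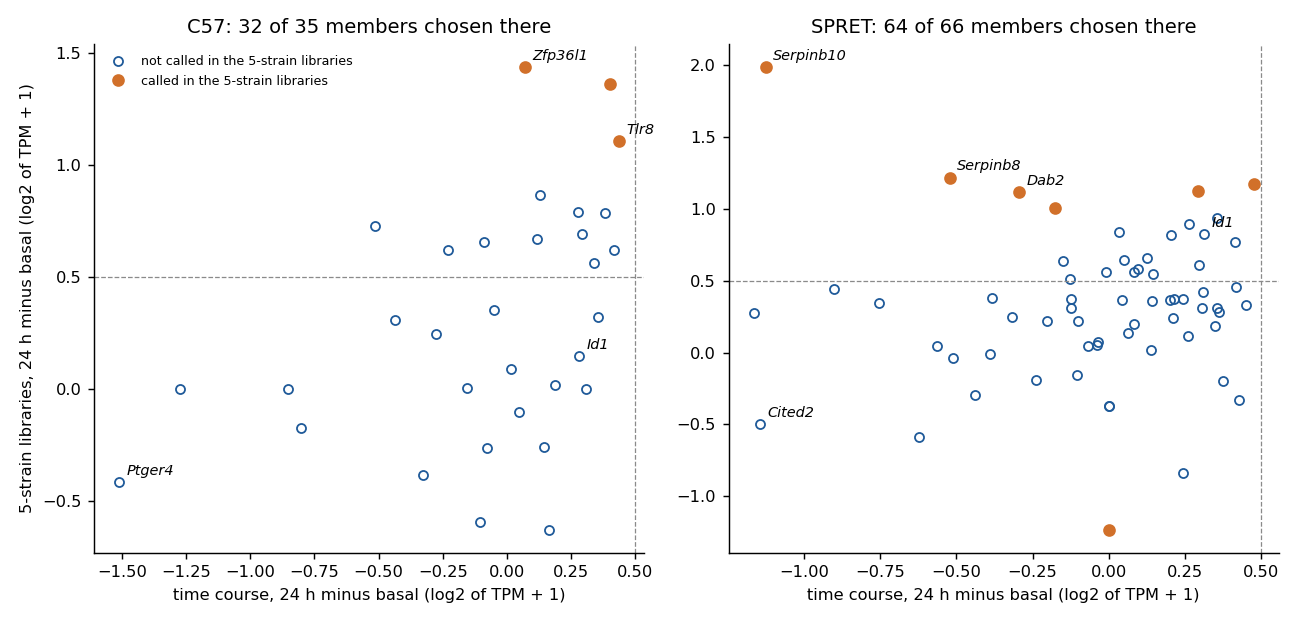
The 24 h minus basal difference on the log2(TPM + 1) scale in the time course (x axis) and in the 5-strain table (y axis) for members chosen in C57 (32 of 35) and in SPRET (64 of 66). By the rule no point lies right of 0.5, while 3 of the C57 points and 6 of the SPRET points lie above 1 on the y axis.

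Members that the other strain had chosen, or that failed the rule only at 24 h, accounted for other calls. Trib1 (1.19), Ier3 (1.24), Osgin2 (1.43), Jdp2 (1.52), Rhoh (1.25) and Gpr183 (1.01) were higher at 24 h in C57. Serpinb2 (3.84), Tlr8 (1.96), Akap7 (1.40), Snord45c (1.36) and Cdc42ep3 (1.03) were higher in SPRET. Serpinb2 had 0.600, 0.763 and 0.536 TPM at basal in SPRET and 21.3, 21.5 and 24.2 at 24 h. Mir142b (-1.82) and Snora43 (-1.13) were lower in C57. With 1 library left out Gpr183 (0.87) and Tlr8 (0.96) missed the fold limit in C57, as did Cdc42ep3 (0.97) and Hyls1 (0.91) in SPRET, and the calls of Snora43 (C57) and Snord68 (SPRET) were lost.

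BALB, NOD and PWK have no 1 h libraries here. At 24 h 3 members were higher and 1 lower in BALB (1.27% and 0.815% of all genes), 4 and 2 in NOD (0.731% and 0.462%), and 6 and 1 in PWK (1.54% and 0.546%). Tlr8 was higher in NOD (1.14) and PWK (1.72), Gpr183 in BALB (1.08) and PWK (1.91), and Zfp36l1 in PWK (1.45). Serpina3h was higher in BALB (1.36) and NOD (2.07), with 1.45, 1.40 and 1.31 TPM at basal in NOD and 11.1, 8.43 and 7.78 at 24 h. Ccl4 was lower in NOD (-1.27), with 319, 259 and 308 TPM at basal and 133, 122 and 111 at 24 h. The basal level of Ccl4 in NOD was above that in the other 4 strains, all of whose basal libraries were between 3.22 and 46.7 TPM. Markers of other cells moved with strain and time here. The neutrophil markers summed to 106 to 131 TPM at basal and 16.8 to 24.4 at 24 h in C57, and were highest in PWK (551 to 601 over both times). The fibroblast markers summed to 204 to 212 TPM at basal in PWK and 106 to 113 at 24 h, against 16.7 or less in the other strains. Their part in the members' differences was not tested.

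The 24 h response was compared with that of C57 in the same table. It differed for 5 of the 83 members in BALB (1.49% of all genes in either direction), 15 in NOD (2.47%), 2 in PWK (2.26%) and 11 in SPRET (3.45%). In NOD Jdp2 (-2.25), Ier3 (-1.75), Ccl4 (-1.57) and Pde4b (-1.55) responded less than in C57, and Serpina3h (1.98) more. In SPRET Serpinb2 (3.17), Serpinb10 (1.99) and Cdc42ep3 (1.30) responded more, and Jdp2 (-1.53) less. Without IL-4, 10 members were higher and 7 lower in SPRET than in C57, against 8.58% and 9.52% of all genes, so the members' share was near that background. In NOD 13 were higher and 15 lower (5.15% and 11.7%), in PWK 7 and 5 (4.49% and 8.81%) and in BALB 2 and 5 (2.65% and 2.17%).

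The wider pathways were described by lists of genes. At 1 h in C57, SPRET and Egr2WT, 4, 4 and 4 of the 20 or 21 immediate early genes tested, most of them transcription factors, were higher and 1, 3 and 3 lower. Of these Ier3, which is not a transcription factor, is a member. Of 27 JAK-STAT and feedback genes 3, 4 and 3 were higher and 0 lower in each. Of 11 messenger decay factors 2, 2 and 1 were higher and 1, 2 and 1 lower, and the higher ones in C57 and SPRET were the members Zfp36l1 and Zc3h12a, which these contrasts had chosen. Of 26 chemokines and cytokines 5, 10 and 5 were higher and 1, 2 and 1 lower. Of 12 MAPK phosphatases and Sprouty genes 1, 2 and 1 were higher and 1, 1 and 2 lower, and of 17 NF-kB genes 1, 2 and 1 were higher and 0, 2 and 0 lower. Of the 8 or 9 ID, HES and inhibitory SMAD genes tested Id1 alone was higher, with 0, 2 and 0 lower, and 0 of 17 interferon-stimulated genes changed in any of the 3.

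Library depth was 5.70 M to 24.0 M tags in the time course, 4.69 M to 32.9 M in the Egr2 table and 7.02 M to 22.5 M in the 5-strain table, and the tables give no counts per gene. All 10 macrophage markers were listed, with 21990 to 54840 summed TPM in the time course, and lymphocyte markers summed to 1.20 TPM or less. Markers of other cells moved with some groups. The 8 neutrophil markers summed to 6.49 to 94.3 TPM over the time course and were lowest in C57 at 24 h (6.49 and 7.97), with 53.7 or more in every other group. The 7 erythroid and platelet markers were higher in C57 (363 or more) than in SPRET (23.1 or less), and the 6 mast cell and basophil markers higher in SPRET (up to 22.8 TPM). At 1 h the macrophage markers summed to 21180 to 21280 TPM in Egr2MKO and 25680 to 26240 in Egr2WT. At basal the sums were 21500 to 21590 and 25050 to 26610. They include Lyz2, the gene for which LyzM-Cre is named, and the part of Lyz2 in this difference was not tested. In Egr2MKO and Egr2WT the neutrophil markers summed to 39.7 to 50.5 and 70 to 85.8 TPM at 1 h. At 24 h they summed to 11 to 16.3 and 19.5 to 21.9. Dendritic cell markers went the other way at 1 h, with 1.24 to 1.25 and 0.539 to 0.597 TPM. Fewer cells of a type and less RNA per cell cannot be told apart in these bulk libraries, and the part of such cells in the members' differences was not tested.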

How the data were processed

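Bone marrow-derived macrophage RNA was measured by poly(A) RNA-seq in 61 libraries of 3 tables. Per the labels and the study's methods, the authors aligned reads to each strain's genome with STAR, shifted SPRET and other non-reference alignments to mm10 coordinates with MMARGE, and counted exons with HOMER. The deposited TPM values were made by the authors from these counts, one value per gene and library, and each table was normalized by itself. The tables also hold the authors' own DESeq2 results (fold change with its p-value, raw and adjusted), which were not used. Whether counting used the strand is not given in the sources used here. Libraries of the F1 crosses were not used here.

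TPM values were placed on the log2(TPM + 1) scale. limma 3.58.1 (R 4.3.3, empirical Bayes with trend) was fitted to all groups of a table, on genes that reached 1 TPM in 2 or more libraries, with Benjamini-Hochberg adjustment over all genes tested. A call needed over 2-fold and an adjusted p under 0.05. The fit was tested on simulated data with known changes. A fold on this scale understates the change of low genes. Depth was 4.69 M to 32.9 M tags per library, and since the tables hold TPM and no counts, no counting interval was formed. Promoters and microRNAs came from RefSeq (GRCm38.p6), and exon counts and untranslated regions from GENCODE on the same build.

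The genes and lists were chosen with earlier results of these data known. Named with values were the members met in both strains, the 12 largest 1 h differences in each strain, members in a pathway list, the 5 largest and 5 smallest responses in Egr2WT, the 5 largest Egr2MKO differences each way, 24 h calls in the 5-strain table and the genes at the thresholds. Other members were named after their values were seen. Alternatives were another pseudocount, filter, scaling, set of samples in the fit, a replicate block and each library left out. Counts without the microRNA and snoRNA genes, and alternatives for the 24 h Egr2MKO results, were added after seeing the data. Results for some genes are not reported here.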

Additional observations from a re-analysis of the deposited data

Results flagged for a closer look

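The following differences between groups passed the test of the difference itself (limma, adjusted p under 0.05 and over 2-fold). Each value is the change from basal in Egr2MKO minus that in Egr2WT, on the log2(TPM + 1) scale. Serpina3h differed by 3.07 at 1 h, 5.82 at 6 h and 4.25 at 24 h, with all 6 treated Egr2MKO libraries above all Egr2WT libraries. At 24 h the response was larger in Egr2MKO for Rasgrp1 (1.32), Ier3 (1.25), Dab2 (1.25), Ccl4 (1.15), Ptger4 (1.12) and Zfp36l1 (1.08). In both Egr2MKO libraries these 6 genes were above both Egr2WT libraries at 24 h. The test used these same libraries, so the separation, here and for Serpina3h, describes the levels and adds no support to the calls.

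Between strains, the 24 h response of 5 members differed from that of C57 in BALB, of 15 in NOD, of 2 in PWK and of 11 in SPRET, each by the same test within the 5-strain table. Of all genes tested 1.49%, 2.47%, 2.26% and 3.45% differed in these strains, and the PWK count was near that share. All 4 of these comparisons share the C57 libraries.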

How the results depend on the processing

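The number of members depended on the rule's settings. The 88 became 45 with a pseudocount of 5 TPM, 145 with no TPM minimum and 48 with a minimum of 10 TPM. It was 120 to 202 with 1 library per group (202 without replicate 2 of every group). These sets did not hold all of the 88. Of the 88, 66 met the rule without replicate 1 of every group and 72 without replicate 2, and 57 met it both ways. With the pseudocount of 5 TPM 38 of the 88 remained. With a pseudocount of 5 TPM, which shrinks low genes by construction, the members induced in Egr2WT numbered 11 at 1 h (24 as reported), 8 at 6 h (15) and 1 at 24 h (7), and those induced at 1 h in Egr2MKO 19 (30). Those that differed between Egr2MKO and Egr2WT at 1 h numbered 2 (5) under it, those changed at 24 h 5 in C57 (11) and 3 in SPRET (12), and those with a basal SPRET difference 9 (17). With 1 library left out, the members that differed between Egr2MKO and Egr2WT at 1 h numbered 3 to 5, with 3 without Egr2WT 1 h replicate 2. The cause was not tested further. Of 187 counts under an alternative, 174 were within 1.5 times the reported one. Of 2212 single calls under an alternative, 2026 were still called, 186 were not, and 0 reversed.

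Samples with the same replicate number did not deviate together (mean correlation 0.030 in the time course, -0.0046 in the Egr2 table and 0.013 in the 5-strain table), so the numbers were not taken as pairs. With the replicate block, 24 members were induced at 1 h in Egr2WT, 18 of those chosen in SPRET in C57 (17 without it) and 15 at 24 h in Egr2MKO (16), and no count moved by over 1.5 times. Groups of 2 libraries and the lack of counts per gene limit the precision, most of all for small RNA genes listed at 0.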
